A study of Mus musculus with 34 samples.

Results

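Transcript levels of the genes that make and break down prostaglandins were followed across 12 groups of sorted mouse stromal cells. The set holds 10 genes of the 51826 gene identifiers counted in each library. It was listed by enzyme function, as the cyclooxygenases Ptgs1 and Ptgs2, the terminal synthases Ptgds, Hpgds, Ptgis, Ptges, Ptges2, Ptges3 and Tbxas1, and the degrading dehydrogenase Hpgd. Each symbol matched a single identifier, and all 10 genes passed the filter on low counts. The libraries hold polyadenylated RNA of cells that were CD45-, CD31- and Epcam- and podoplanin-positive (PDPN+) and were sorted into TRIZOL. The study asked how transcription depends on the tissue in which a cell lives.

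Mesothelial cells, the epithelium-like lining of the body cavities, were sorted as PDGFRA- cells from omentum, mesentery and epididymal fat, with 3 libraries per depot. Fibroblasts were sorted as PDGFRA+ cells from the same 3 depots and from inguinal fat, brown adipose tissue, bone and lymph node with 3 libraries each, and from spleen and pancreas with 2 each. Per the labels, the omental, mesenteric and epididymal depots are visceral and the inguinal and brown ones subcutaneous, and all 34 libraries are GFP-negative. Strain, age and sex are not given in the sources used here, and no agent or genotype separates the groups. Whether replicates are different mice is not labelled, and the p-values below measure only the spread between these libraries, which may be technical. In these bulk libraries, fewer cells of a type and less RNA per cell cannot be told apart.

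Prostaglandins are short-lived lipid messengers made from arachidonic acid, which phospholipases release from membranes. A cyclooxygenase turns it into a common unstable intermediate, prostaglandin H, and the terminal synthase that a cell carries then decides whether prostaglandin D, E, I (prostacyclin) or thromboxane is formed. Ptgs1 is known as the constitutive cyclooxygenase and Ptgs2 as the one induced by growth factors, cytokines and stress. The hydroxyprostaglandin dehydrogenase Hpgd carries out the first step of inactivation. Stromal cells and mesothelium are both known sources of prostacyclin and prostaglandin E.

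Library totals lay between 28.7 and 42.3 M counts (median 33.5 M). The sorted marker and the mesothelial list separated the cell types. Pdgfra read 4.43 to 13.5 CPM (counts scaled by library size) in mesothelial libraries, against 367 to 1424 CPM in fibroblast libraries. The summed level of 7 mesothelial markers ran from 7910 to 11711 CPM in mesothelial libraries, against 1.68 to 880 CPM in fibroblast libraries, and the highest of the fibroblast values, 595 to 880 CPM, belonged to the omentum. The sum of 5 fibroblast markers (Pdgfra, Col1a1, Col1a2, Dcn and Lum) did not separate them, with 15893 to 23233 CPM in mesothelial libraries, against 13960 to 23262 CPM in pancreas, 16160 to 24769 CPM in lymph node, 22097 to 24138 CPM in omentum and 28346 to 171330.0 CPM in the other fibroblasts. Mural markers (Rgs5, Cspg4, Myh11, Acta2 and Mcam) summed to 191 to 644 CPM in mesothelial libraries, against 52.1 to 175 CPM in fibroblasts of the same depots, and their part in the differences between these cell types was not tested. A summed level of at least 1000 CPM of 6 pancreatic acinar transcripts was found in 7 libraries. These were both pancreas libraries, omentum fibroblast replicates 1 and 3, mesentery fibroblast replicate 1, omentum mesothelial replicate 1 and mesentery mesothelial replicate 1. Values without them are given for some of the results below and not for all. Leaving them out removes the pancreas group and keeps only replicate 2 of the omentum fibroblasts. Lymphocyte transcripts summed to 279 to 556 CPM in omentum fibroblasts.

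The cyclooxygenase genes lie on different chromosomes, Ptgs1 at chr2:36230426-36252272 on the plus strand and Ptgs2 at chr1:150100031-150108227 on the plus strand (GRCm38). The 250 bases upstream of each annotated start (RefSeq, GRCm38.p6) are shown because these 2 genes catalyse the same reaction and had group levels that were almost unrelated across the 12 groups (r = 0.03). The windows are chr2:36230176-36230425 for Ptgs1 and chr1:150099781-150100030 for Ptgs2, both on the plus strand. Capitals mark matches to the motifs searched.
Ptgs1: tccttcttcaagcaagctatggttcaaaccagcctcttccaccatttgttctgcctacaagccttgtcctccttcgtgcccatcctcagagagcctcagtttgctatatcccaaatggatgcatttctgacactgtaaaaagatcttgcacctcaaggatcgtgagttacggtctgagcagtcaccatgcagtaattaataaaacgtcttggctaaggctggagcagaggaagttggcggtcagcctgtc
Ptgs2: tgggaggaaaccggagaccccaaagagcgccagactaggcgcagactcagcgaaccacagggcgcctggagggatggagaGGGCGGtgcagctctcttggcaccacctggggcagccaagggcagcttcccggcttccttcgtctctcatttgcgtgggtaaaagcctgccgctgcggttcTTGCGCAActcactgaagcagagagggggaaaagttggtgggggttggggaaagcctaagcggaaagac
The Ptgs2 window had 61.6% G and C bases, against 48.0% in the Ptgs1 window, beside a median of 52.4% over the windows of all genes. The motifs searched on both strands were the TATA box TATAAA, the cyclic AMP response element core CGTCA, the CCAAT box CCAAT, the GC box GGGCGG and the C/EBP palindrome TTGCGCAA, of which the last was added after the letters had been seen. No matches in these windows overlapped. The Ptgs2 window held a GC box at -170 to -165 and the palindrome at -69 to -62, counted from the start, and the Ptgs1 window held no match. Of 32851 windows of this length, 32.7% held the GC box, 0.164% the palindrome, 12.4% the TATA box, 17.8% the response element core and 33.8% the CCAAT box. Among the 9 members with a window, 4 held a GC box. These matches describe letters and not binding. Letters past the annotated start, or further upstream than 250 bases, were not searched, so a motif without a match may lie there.

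Ptgs1, the constitutive cyclooxygenase, was highest in mesothelial cells of the omentum and lowest in fibroblasts of lymph node and bone, a span of 15.1-fold between group means. The mesothelial libraries read 253, 299 and 316 CPM in the omentum, 226, 215 and 255 CPM in the mesentery and 201, 187 and 160.4 CPM in epididymal fat. Fibroblasts of the same depots read 175, 149 and 139 CPM in the omentum, 139, 133 and 135 CPM in the mesentery and 101, 121 and 111 CPM in epididymal fat. In each depot the mesothelial libraries lay above the fibroblast libraries. Pancreas fibroblasts had 194 and 212 CPM and spleen fibroblasts 113 and 105 CPM. Subcutaneous fibroblasts read 48.5, 40.2 and 56.4 CPM in inguinal fat and 61.1, 96.9 and 54.7 CPM in brown adipose tissue. Ptgs1 in bone fibroblasts was 21.1, 29.4 and 16.5 CPM, and in lymph node fibroblasts 24.8, 14.6 and 18.1 CPM. In the order of group means, neighbouring groups were separated without overlap at 4 places, below mesentery mesothelial cells, mesentery fibroblasts, spleen fibroblasts and inguinal fibroblasts. A gene annotated on the opposite strand, Gm43621, shares 148 exon bases with Ptgs1 and had 1085 counts in all libraries, beside 155134 for Ptgs1. The strand setting of the counting is not given, so reads of such pairs cannot be told apart.

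Ptgs2, the inducible cyclooxygenase, was highest in omentum fibroblasts and lowest in pancreas fibroblasts, a span of 100.2-fold. Omentum mesothelial cells read 103, 158 and 119 CPM. Omentum fibroblasts read 1012, 1050.1 and 1392 CPM, above every other library. Within the omentum, then, the cell types differed in the opposite direction to Ptgs1. Mesentery mesothelial cells had 388, 390.2 and 525 CPM and mesentery fibroblasts 235, 202 and 294 CPM. Epididymal mesothelial cells had 353, 83.8 and 294 CPM and epididymal fibroblasts 292, 128 and 260.0 CPM, with overlap between the cell types. Fibroblasts of brown adipose tissue read 455, 352 and 282 CPM and those of inguinal fat 479, 166 and 216 CPM. Ptgs2 was 244 and 143 CPM in spleen, 222, 76.8 and 136 CPM in bone and 159, 62.8 and 91.1 CPM in lymph node fibroblasts. Replicates of a group thus differed up to several-fold, and the 10 groups between the extremes overlapped their neighbours. The pancreas libraries, with 11.9 and 11.0 CPM, stood apart below all others.

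**Figure D1:**
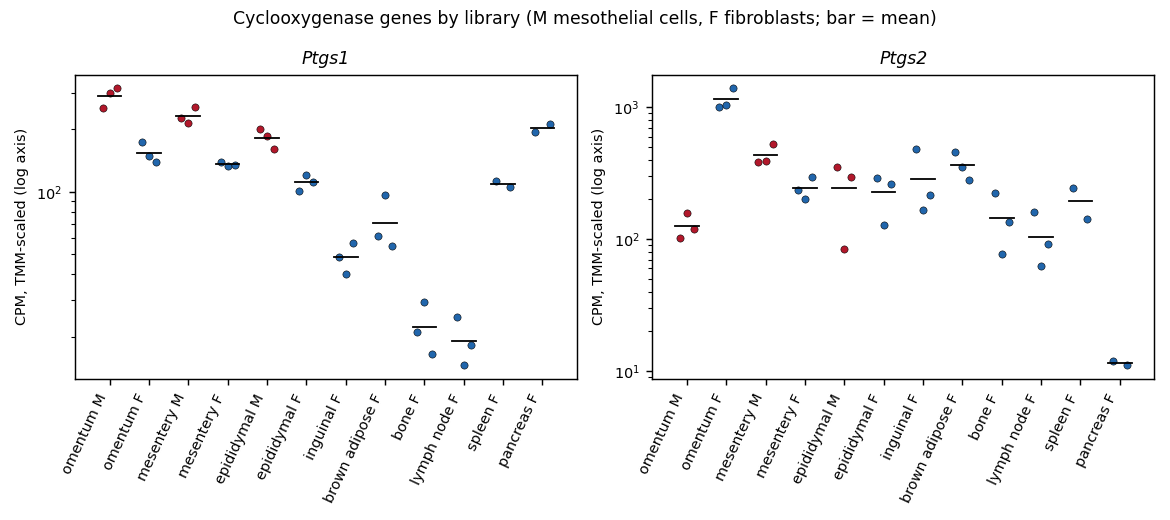
Ptgs1 and Ptgs2 in each of the 34 libraries, as CPM on log axes, with mesothelial cells (M) in red left of the fibroblasts (F, blue) of the same depot and bars at group means. Ptgs1 is above its fibroblasts in each mesothelial depot, while Ptgs2 peaks at 1012 to 1392 CPM in omentum fibroblasts and is 11.0 and 11.9 CPM in the pancreas.

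Because Ptgs2 is itself an immediate early gene, its level was set beside the summed level of 9 others (Fos, Fosb, Jun, Junb, Egr1, Ier2, Atf3, Nr4a1 and Dusp1), transcripts that rise rapidly during tissue digestion as well as in vivo. All 9 had counts in every library. Their sum was 897 and 550 CPM in the pancreas libraries, against 2881 to 17081 CPM in the other 32. In 7 of 12 groups the library lowest in Ptgs2 also had the lowest sum. With 2 or 3 libraries a group such matches are frequent by chance, and their number was not tested. In epididymal mesothelial cells replicate 2 had a sum of 7785 CPM, against 14867 and 17081 CPM in replicates 1 and 3, and in lymph node fibroblasts replicate 2 had 2881 CPM, against 8461 and 9259 CPM. Omentum mesothelial cells had sums of 11241 to 13607 CPM, against 8614 to 10502 CPM in omentum fibroblasts, which had the highest Ptgs2 of the series. The part of this signal in the Ptgs2 differences was not tested.

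**Figure D2:**
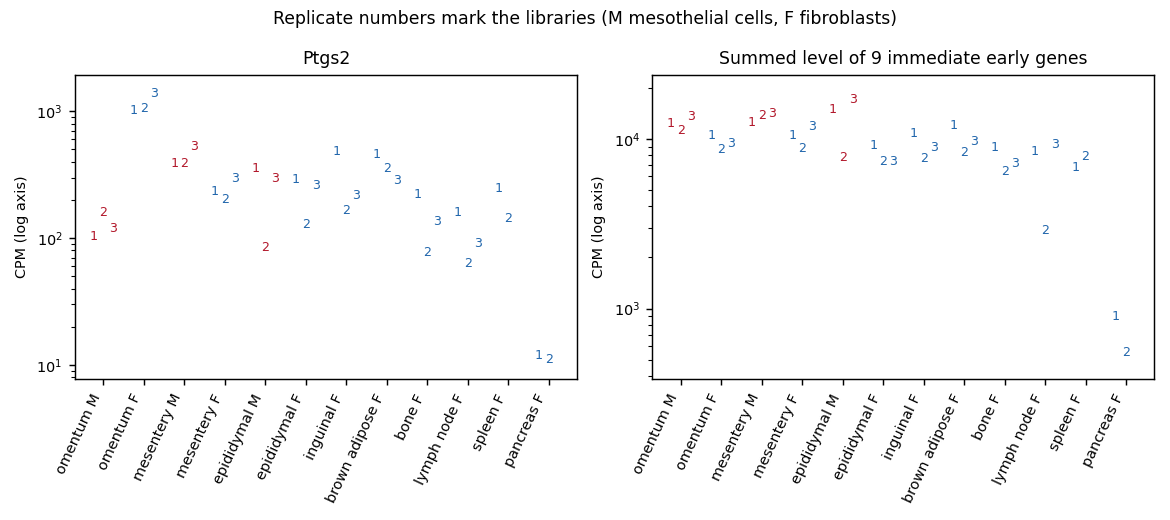
Ptgs2 (left) and the summed level of 9 immediate early genes (right) by group, as CPM on log axes, with the replicate number printed for each library, mesothelial cells (M) in red and fibroblasts (F) in blue. The pancreas libraries are lowest in both panels, and omentum fibroblasts are highest on the left only.

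Compared per kilobase of exon, Ptgs2 supplied most cyclooxygenase transcript in most groups. Its share of Ptgs1 and Ptgs2 together was 26.9 ± 3.55% in omentum mesothelial cells, against 86.1 ± 3.22% in omentum fibroblasts (SD, n = 3 each). It was 61.1% in mesentery mesothelial cells and 60.0% in mesentery fibroblasts, and 49.4 ± 18.9% in epididymal mesothelial cells and 61.6% in epididymal fibroblasts. In the remaining fibroblasts the share was 82.1% in bone, 81.3% in lymph node, 81.2% in inguinal fat, 81.1% in brown adipose tissue and 59.1% in spleen. It was 4.59 ± 0.524% in pancreas fibroblasts (SD, n = 2). Ptgs1 thus made up most of the transcript in pancreas fibroblasts and the omental mesothelium, and close to as much as Ptgs2 in the epididymal mesothelium, where the libraries differed widely. Near-even shares depend on the length used, which merges all annotated exons of a gene.

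Ptgis, the prostacyclin synthase (chr2:167191805-167240604, minus strand), had the widest span of the members with reads in every group, 252-fold from omentum mesothelial cells down to lymph node fibroblasts. Mesothelial cells had 1302, 1209 and 1093 CPM in the omentum, 883, 1186 and 678 CPM in epididymal fat and 711, 878 and 716 CPM in the mesentery. Their depot fibroblasts had 429.8, 381 and 382 CPM in the omentum, 352, 386 and 313 CPM in epididymal fat and 225, 191 and 286 CPM in the mesentery. All 9 mesothelial libraries lay above all 25 fibroblast libraries. Bone fibroblasts came next, with 552, 660.2 and 653 CPM. Pancreas had 279.7 and 264 CPM and spleen 226 and 234 CPM, while brown adipose tissue had 122, 156 and 101 CPM and inguinal fat 118, 125 and 118 CPM. Lymph node fibroblasts read 5.04, 5.25 and 3.98 CPM and were far below every other library. A gene on the opposite strand, 1110018N20Rik, shares 156 exon bases with Ptgis and had 1141 counts, beside 515105 for Ptgis.

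Ptges, the microsomal prostaglandin E synthase that is commonly induced together with Ptgs2 (chr2:30889471-30929863, minus strand), was highest in the omentum and lowest in epididymal mesothelial cells, a span of 31.9-fold. Omentum mesothelial cells read 246, 524 and 342 CPM and omentum fibroblasts 428, 399 and 410.3 CPM, with overlap. Mesentery mesothelial cells read 49.4, 51.1 and 79.9 CPM, against 215, 247 and 221 CPM in mesentery fibroblasts. Epididymal mesothelial cells read 18.3, 10.4 and 10.1 CPM, against 272, 270.3 and 291 CPM in epididymal fibroblasts. The mesothelium thus held both high and very low Ptges depending on the depot. Ptges in the other fibroblasts was 186, 297 and 235 CPM in inguinal fat, 183, 229 and 177 CPM in brown adipose tissue, 231 and 206 CPM in spleen and 165 and 160.2 CPM in pancreas. Bone fibroblasts had 64.0, 33.9 and 31.2 CPM and lymph node fibroblasts 93.5, 68.5 and 48.4 CPM, the lowest fibroblast values.

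Ptgds, the lipocalin-type prostaglandin D synthase (chr2:25466709-25470046, minus strand), was a mesothelial transcript in these libraries. It read 27.9, 41.8 and 18.0 CPM in epididymal, 12.9, 21.4 and 18.2 CPM in mesentery and 12.2, 11.0 and 6.29 CPM in omentum mesothelial cells. No fibroblast library exceeded 1.72 CPM. Behind these low values stood 3, 17 and 5 reads in epididymal, 5, 3 and 0 in mesentery and 3, 3 and 1 in omentum fibroblasts. Inguinal and brown adipose fibroblasts had no Ptgds read in any library, which allows up to 0.0282 and 0.0256 CPM over these groups, from 3 counts and covering counting error only. In bone and pancreas a single library carried most reads, with 47, 5 and 3 reads in bone, 1 and 55 in pancreas, 5 and 5 in spleen and 0, 2 and 0 in lymph node.

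**Figure D3:**
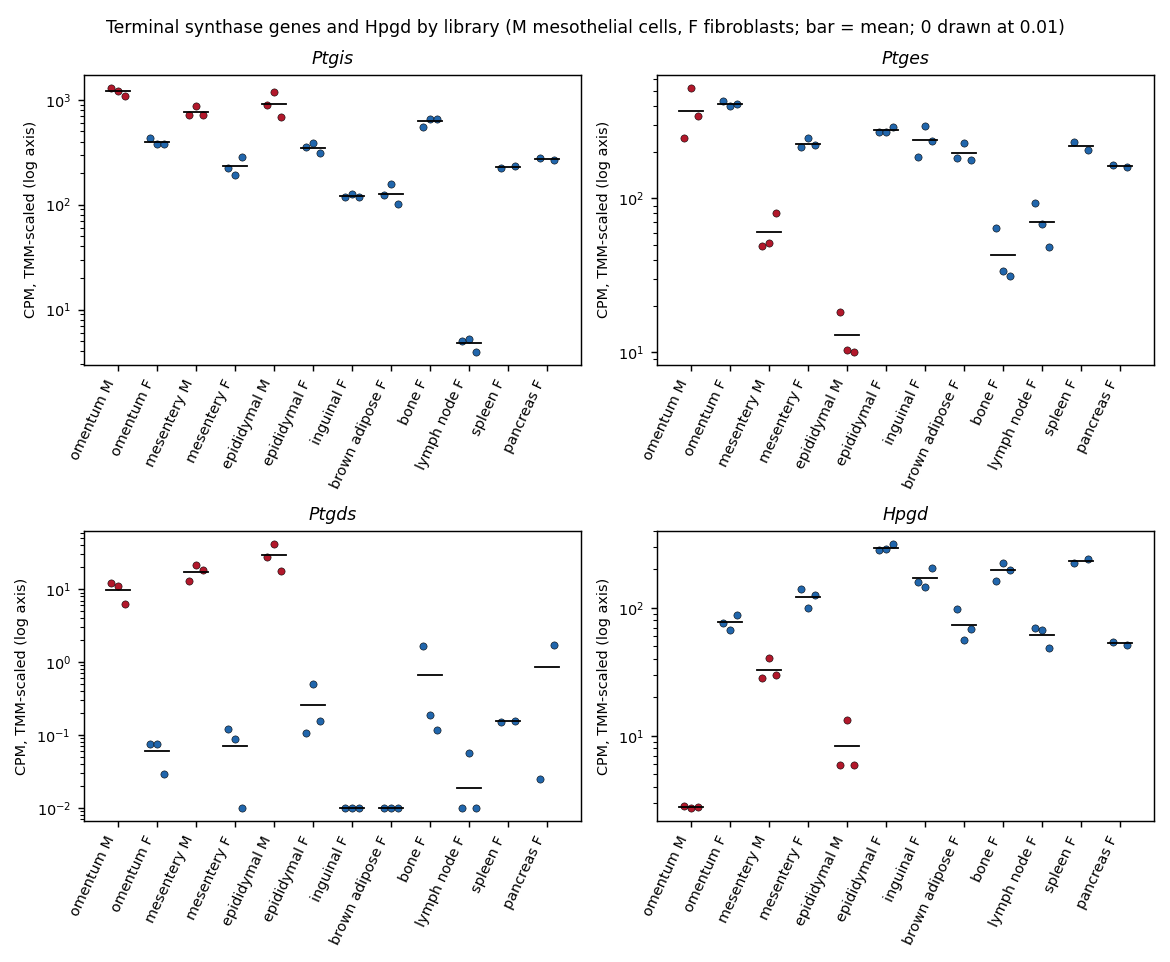
Ptgis, Ptges, Ptgds and Hpgd in each of the 34 libraries, as CPM on log axes with libraries of 0 drawn at 0.01, mesothelial cells (M, red) left of the fibroblasts (F, blue) of the same depot and bars at group means. Ptgis and Ptgds are higher and Hpgd is lower in mesothelial cells, Ptges is low only in mesentery and epididymal mesothelial cells among the depots, and lymph node fibroblasts have 3.98 to 5.25 CPM of Ptgis.

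Per kilobase of exon, the balance of Ptgis, Ptges and Ptgds differed between groups. Ptgis made up 82.5 ± 5.39% of the 3 together in omentum, 92.0 ± 1.82% in mesentery and 94.5 ± 0.555% in epididymal mesothelial cells (SD, n = 3 each). The share was 59.6%, 60.8% and 65.7% in fibroblasts of these depots in the same order. Bone fibroblasts had 95.4% Ptgis, pancreas 71.6% and spleen 61.7%. Ptges made up 90.2 ± 1.92% in lymph node and 56.1 ± 5.07% in inguinal fibroblasts, and was level with Ptgis in brown adipose tissue at 50.5 ± 2.37% (SD, n = 3 each). With all 7 terminal synthases as the whole, the abundant Ptges3 took 89.3% in lymph node, 51.1% in inguinal and 54.8% in brown adipose fibroblasts, and Ptges 9.38%, 27.3% and 22.7% in that order. Ptgds stayed at 1.04%, 3.23% and 4.57% even in omentum, mesentery and epididymal mesothelial cells.

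Hpgd, which inactivates prostaglandins (chr8:56294585-56321043, plus strand), ran opposite to Ptgis and Ptgds between the cell types. Mesothelial cells read 2.82, 2.73 and 2.79 CPM in the omentum, 5.90, 13.2 and 5.93 CPM in epididymal fat and 28.0, 40.6 and 29.6 CPM in the mesentery. Depot fibroblasts read 76.2, 67.6 and 87.7 CPM in the omentum, 286, 288 and 316 CPM in epididymal fat and 139, 99.9 and 126 CPM in the mesentery. Every mesothelial library lay below every fibroblast library, and the 3 mesothelial depots did not overlap each other. The epididymal fibroblasts had the highest Hpgd of all groups. Other fibroblasts had 223 and 240.1 CPM in spleen, 164, 226 and 199 CPM in bone, 160.1, 146 and 205 CPM in inguinal fat and 97.5, 55.6 and 68.0 CPM in brown adipose tissue. Lymph node fibroblasts had 69.1, 67.1 and 48.7 CPM and pancreas fibroblasts 54.5 and 51.1 CPM. The span between group means was 107-fold.

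The 4 remaining members varied less or were close to the detection limit. Ptges3, the cytosolic prostaglandin E synthase that also serves as the Hsp90 co-chaperone p23, was abundant everywhere, between 226 CPM on average in pancreas and 512 ± 354 CPM in lymph node fibroblasts. The lymph node mean rested on replicate 3 with 921 CPM, against 321 and 294 CPM in the others. Ptges2, a membrane-associated prostaglandin E synthase, averaged 5.27 ± 1.81, 4.30 ± 0.920 and 3.96 ± 0.654 CPM in epididymal, omentum and mesentery mesothelial cells, against 2.01 to 3.81 CPM in the fibroblast groups (SD, n = 3). Hpgds, the haematopoietic prostaglandin D synthase of mast cells and other leukocytes, stayed between 0.313 CPM in omentum mesothelial cells and 1.66 CPM in pancreas fibroblasts. Tbxas1, the thromboxane synthase of platelets and macrophages, read 8.79, 8.70 and 9.60 CPM in bone fibroblasts and between 0.256 and 1.74 CPM on average in all other groups. Summed macrophage markers were 40.7 to 75.3 CPM in bone, against 119 to 153 CPM in omentum fibroblasts, where Tbxas1 was 0.785, 1.54 and 1.23 CPM. In bone 7 of 8 macrophage and 5 of 5 platelet markers had reads in every library. Platelet markers summed to 13.9 to 42.1 CPM in bone, against 3.70 to 23.1 CPM elsewhere, and the part of either cell type in Tbxas1 was not tested. Ptges3 lies at chr10:128058954-128077272, Ptges2 at chr2:32395896-32405772 and Tbxas1 at chr6:38875404-39084585, all on the plus strand, and Hpgds at chr6:65117293-65144908 on the minus strand.

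Differences between groups were tested with edgeR's quasi-likelihood test on the counts, and all adjusted p-values are Benjamini-Hochberg values over the 25705 genes tested. A gene was called where the adjusted p was under 0.05 and the log2 fold change, or the range of effects for a test over several groups, was at least 1. Each SE of a fold change was derived from the fold change and its F statistic. It is approximate, most so where 1 side had few reads. Of the 10 members, 2 were higher and 2 lower in mesothelial cells than in fibroblasts over the mean of the 3 depots. Across all genes 12.3% were called higher and 9.08% lower in this comparison, 21.4% in all. Ptgds rose by a log2 fold change of 7.27 ± 0.41 (SE; adjusted p = 7.73e-17) and Ptgis by 1.57 ± 0.11 (adjusted p = 2.35e-14). Hpgd fell by 3.95 on the log2 scale (SE 0.15, adjusted p = 1.59e-20) and Ptges by 2.17 (SE 0.16, adjusted p = 4.19e-13). Ptgs1 differed by 0.80 ± 0.12 (adjusted p = 7.98e-07) and Ptges2 by 0.98 ± 0.16 (adjusted p = 6.64e-06), both below the fold threshold. Ptgs2 differed by -0.75 ± 0.26 (adjusted p = 0.0241), and Ptges3, Hpgds and Tbxas1 had adjusted p-values of 0.298, 0.958 and 0.861. The median log2 fold change was 0.13 over the members and 0.11 over all genes tested.

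Within the depots, Ptgis, Ptgds and Hpgd kept their direction and were called in each. The omentum had 5 of the 10 members called, beside 16.9% of all genes, the mesentery 4 beside 18.3% and epididymal fat 5 beside 24.7%. Ptgis was higher in mesothelial cells by 1.59 ± 0.18 in omental, 1.72 ± 0.18 in mesenteric and 1.39 ± 0.18 in epididymal libraries (log2, SE; adjusted p = 2.49e-08, 3.53e-09 and 1.98e-07). In epididymal fat the median gene was itself higher by 0.33. Ptgds was higher by 7.23 ± 0.78, 7.82 ± 0.75 and 6.77 ± 0.63 in the same order, with adjusted p-values of 3.9e-09, 1.65e-10 and 9.67e-11. These folds rest on few fibroblast reads, and the Ptgds fold became 8.48 without mesentery fibroblast replicate 1 and 7.75 without epididymal fibroblast replicate 2. Hpgd differed by -4.79 ± 0.28 in omental, -1.89 ± 0.24 in mesenteric and -5.16 ± 0.28 in epididymal libraries (adjusted p = 8.48e-15, 9.74e-08 and 4.66e-16). Ptgs1 was higher by 0.91 ± 0.20, 0.77 ± 0.20 and 0.72 ± 0.20, with adjusted p-values of 8.89e-04, 0.0037 and 0.00641, and stayed under the fold threshold in each.

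Ptgs2 and Ptges depended on the depot. In omentum mesothelial cells Ptgs2 changed by -3.19 ± 0.49 (adjusted p = 1.31e-05), against 0.84 ± 0.45 among mesenteric libraries (adjusted p = 0.213) and 0.10 ± 0.45 among epididymal ones (adjusted p = 0.887). Ptges changed by -1.92 ± 0.28 in mesentery (adjusted p = 1.34e-06) and by -4.43 ± 0.31 in epididymal mesothelial cells (adjusted p = 3.64e-13), while in the omentum it differed by -0.15 ± 0.27 (adjusted p = 0.711). A test of the difference of the effects between depots called 4 of the 10 members, beside 10.9% of all genes. The effects ranged over 4.02 for Ptgs2 (adjusted p = 2.1e-04), 4.27 for Ptges (adjusted p = 1.37e-08) and 3.26 for Hpgd (adjusted p = 2.13e-08). The call of Hpgds (range 2.49, adjusted p = 0.045) rests on group means of at most 1.04 CPM in these depots and was lost in 18 of 25 alternatives. For Ptgis and Ptgs1 the effects ranged over 0.33 and 0.19, with adjusted p-values of 0.610 and 0.875. Ptges2 was called in the omentum (1.09 ± 0.28, adjusted p = 0.00391) and epididymal fat (1.24 ± 0.28, adjusted p = 8.15e-04). The omentum call was lost in 5 of 13 alternatives. Ptges2 no longer passed in epididymal fat without epididymal mesothelial replicate 2 (0.94), nor in the omentum without omentum fibroblast replicate 1 (0.97), omentum mesothelial replicate 2 (0.92) or the acinar-rich libraries (0.89).

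**Figure D4:**
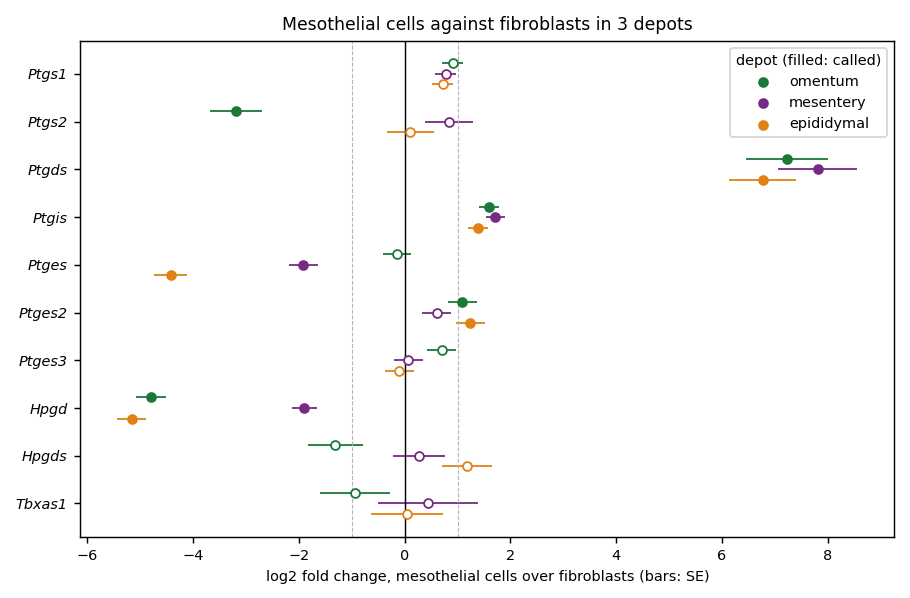
Log2 fold change of the 10 members in mesothelial cells over fibroblasts in omentum, mesentery and epididymal fat, with bars for the approximate SE, filled points for calls and dashed lines at -1 and 1. Ptgis and Ptgds lie to the right and Hpgd to the left in all 3 depots, whereas Ptgs2 is low only in the omentum and Ptges only in mesentery and epididymal fat.

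Mesothelial cells also differed among the 3 depots in 5 of the 10 members, beside 12.3% of all genes. Ptges effects ranged over 4.84 (adjusted p = 7.69e-13) and Hpgd effects over 3.56 (adjusted p = 2.51e-11). High Ptges and low Hpgd met in omentum mesothelial cells, low Ptges and low Hpgd in epididymal mesothelial cells. Ptgs2 (range 1.78, adjusted p = 0.0234) was highest in the mesentery, but the call was lost without mesentery mesothelial replicate 1 or 3 (1.80 and 1.62) or omentum mesothelial replicate 1 or 3 (1.65 and 1.74), and without the acinar-rich libraries (1.73, adjusted p = 0.176). The Ptgds call (range 1.57, adjusted p = 0.026) was lost without epididymal mesothelial replicate 1 or 2 (1.52 and 1.23) or omentum mesothelial replicate 2 or 3 (1.67 and 1.33), and that of Hpgds (1.72, adjusted p = 0.0439) in 13 of 16 alternatives. Ptgis and Ptgs1 ranged over 0.64 and 0.66 and were not called.

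Among fibroblasts of the 9 tissues, 9 of the 10 members were called, beside 44.0% of all genes, and Ptges2 was not (range 0.92, adjusted p = 0.147). The ranges were 7.02 for Ptgis (adjusted p = 7.07e-20), 5.11 for Tbxas1 (adjusted p = 8.92e-09), 3.41 for Ptgs1 (adjusted p = 7.03e-15), 3.26 for Ptges (adjusted p = 5.86e-10) and 2.49 for Hpgd (adjusted p = 6.21e-11). Tbxas1 moved to 5.81 without brown adipose replicate 3. Ptgs2 ranged over 6.65 (adjusted p = 5.38e-08), and over 3.33 (adjusted p = 0.00997) without the acinar-rich libraries, which include the whole pancreas group. The Ptges3 call (1.18, adjusted p = 0.0104) was lost without lymph node replicate 3 (0.45, adjusted p = 0.448). The Hpgds call (2.30, adjusted p = 0.00864) was lost without pancreas replicate 2 (1.85, adjusted p = 0.123) and without the acinar-rich libraries (adjusted p = 0.237). Ptgds was called with an adjusted p of 7.18e-04, on the read counts given above.

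Visceral fat fibroblasts, from omentum, mesentery and epididymal fat, had more Ptgs1 and more Ptgis than subcutaneous fibroblasts. Ptgs1 was higher by 1.18 ± 0.13 (log2, SE; adjusted p = 3.81e-08) and Ptgis by 1.37 ± 0.12 (adjusted p = 1.33e-10), and every visceral library lay above every subcutaneous library for both. These were 2 of 10 members, beside 4.29% of all genes called higher. Ptgs2, Hpgd and Ptges differed by 0.31, 0.33 and 0.45 and did not pass. Here the median gene was lower by 0.10.

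Set against the mean of the other 8 tissues, omentum fibroblasts had 4 called members, all higher, beside 7.64% of all genes called higher. Ptgs2 was higher by 2.99 ± 0.27 (adjusted p = 2.61e-09), Ptgis by 1.42 ± 0.12 (adjusted p = 3.33e-11), Ptges by 1.42 ± 0.18 (adjusted p = 2.22e-07) and Ptgs1 by 1.17 ± 0.14 (adjusted p = 5.3e-08). Omentum fibroblasts averaged 398 CPM of Ptgis, below bone at 622 CPM. The mean of log2 levels over the other 8 tissues takes in lymph node, at 4.76 CPM of Ptgis, which lowers it. No fit left that group out. Both cyclooxygenases, the prostacyclin synthase and Ptges were thus called higher, while the other prostaglandin E synthases were not, with -0.52 for Ptges2 (adjusted p = 0.119) and -0.11 for Ptges3 (adjusted p = 0.810). Without the acinar-rich libraries the Ptgs2 value was 2.33. That fit keeps omentum fibroblast replicate 2 alone and takes the pancreas group, the lowest in Ptgs2, out of the other tissues. Omentum fibroblasts also had the most mesothelial and lymphocyte marker transcript of the fibroblast groups, and 119 to 153 CPM of macrophage markers, against 9.04 to 75.3 CPM in the other fibroblast libraries except pancreas replicate 2. The Ptgs2 level of the omental mesothelium was lower than that of its fibroblasts. The part of the other cells was not tested.

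Lymph node fibroblasts had 4 called members, all lower, beside 7.13% of all genes called lower. More members were called without the acinar-rich libraries, a fit that takes the pancreas group out of the other tissues. Ptgis changed by -5.75 ± 0.21 (adjusted p = 6.5e-21), Ptgs1 by -2.22 ± 0.18 (adjusted p = 1.14e-11) and Ptges by -1.46 ± 0.23 (adjusted p = 5.63e-06). Hpgd changed by -1.08 ± 0.19 (adjusted p = 3.06e-05), and by -0.94 without lymph node replicate 3. Mural markers summed to 829 to 1010.4 CPM in lymph node fibroblasts, with all 5 present in every library, against 11.1 to 211 CPM in the other fibroblasts, and their part in these changes was not tested. Bone fibroblasts had 5 called members, beside 19.5% of all genes. In bone Ptgis was higher by 2.15 ± 0.11 (adjusted p = 7.3e-17) and Tbxas1 by 3.84 ± 0.33 (adjusted p = 2.7e-11), whereas Ptgs1 changed by -1.97 ± 0.18 (adjusted p = 9.15e-11) and Ptges by -2.25 ± 0.24 (adjusted p = 4.27e-09). The Ptgds call in bone was lost without bone replicate 1, which held 47 of its reads. Bone and lymph node fibroblasts thus shared low Ptgs1 and low Ptges and had the highest and the lowest fibroblast level of Ptgis. Each is part of the mean that the other was set against.

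Pancreas fibroblasts also had 5 called members, beside 11.0% of all genes. Ptgs1 was higher by 1.61 ± 0.16 (adjusted p = 1.46e-09), Ptgs2 changed by -4.49 ± 0.59 (adjusted p = 3.61e-06) and Hpgd changed by -1.33 ± 0.23 (adjusted p = 9.91e-05). The median gene was higher by 0.12 in this comparison. The calls of Hpgds (1.54 ± 0.34, adjusted p = 0.00194) and Ptgds were lost without pancreas replicate 2, which had 207 CPM of macrophage markers, against 10.1 CPM in replicate 1. The acinar marker sums were 66112 CPM in replicate 2 and 18110.5 CPM in replicate 1. The part of either in these calls was not tested.

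The other tissues had fewer calls. Epididymal fibroblasts were higher in Hpgd by 1.47 ± 0.15 (adjusted p = 1.47e-08) and in Ptgis by 1.22 ± 0.12 (adjusted p = 6.62e-09), beside 2.50% of all genes called higher and a median of -0.11. Their Ptgis mean of 350 CPM lay below bone (622 CPM) and omentum (398 CPM). As for the omentum, the mean of the other tissues takes in lymph node, at 4.76 CPM of Ptgis, which lowers it. Spleen fibroblasts were higher in Hpgd by 1.07 ± 0.19 (adjusted p = 1.92e-04), beside 3.47% of all genes called higher. The value was 0.96 without the acinar-rich libraries, a fit that takes pancreas, at 52.8 CPM of Hpgd, out of the other tissues. Brown adipose fibroblasts were higher in Ptgs2 by 1.12 ± 0.31 (adjusted p = 0.0171), beside 3.66% of all genes called higher. This call was lost without brown adipose replicate 1 (0.92) or 2 (1.14, adjusted p = 0.059) and with unscaled totals (0.95). It was also lost without the acinar-rich libraries (0.58). That fit drops no brown adipose library, but takes the pancreas group, at 11.5 CPM of Ptgs2, out of the other tissues. No member was called by edgeR's test in inguinal fat (6.30% of all genes) or in mesentery fibroblasts (3.50%), where Ptgs1 differed by 0.96 with an adjusted p of 1.16e-05. At an unadjusted p under 0.05 there were 5 members in inguinal fat and 4 in mesentery fibroblasts, and DESeq2 called 1 member in each. The share of all genes under either criterion is not given here, so these counts cannot be read as an excess.

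**Figure D5:**
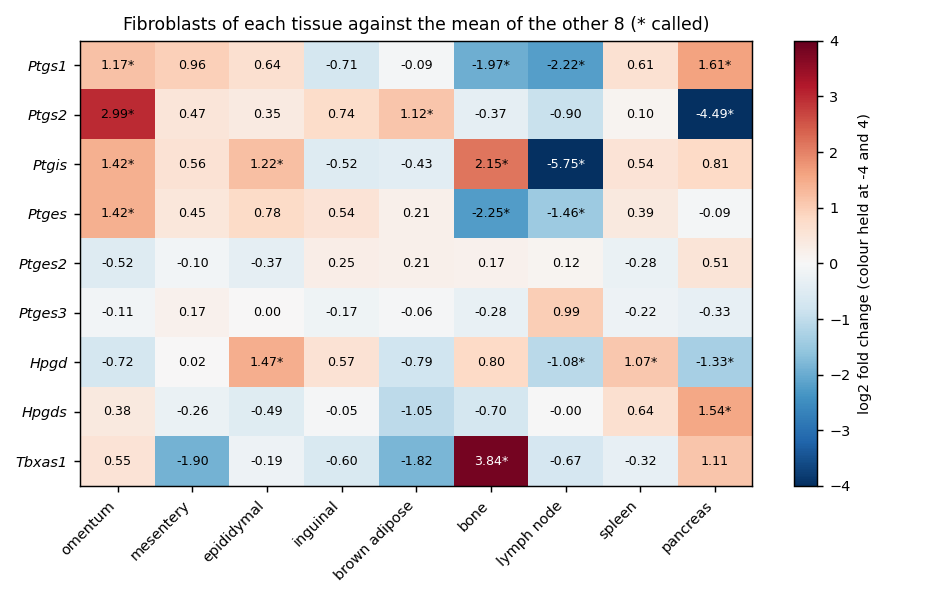
Log2 fold change of 9 members in the fibroblasts of each tissue against the mean of the other 8, with asterisks at calls and the colour held at -4 and 4. Ptgds is left out because some groups had no read. Omentum fibroblasts show 4 asterisks, all higher, and lymph node fibroblasts 4, all lower.

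Genes around these enzymes were counted from 4 lists of 31 genes. In mesothelial cells against fibroblasts over the mean of depots, 5 genes of arachidonate release were higher and 1 was lower, of 8 tested, beside 12.3% of all genes called higher and 9.08% called lower, with a median of 1.21 (midway between Pla2g4a and Mgll) beside 0.11 over all genes. The fatty acid amide hydrolase Faah, which frees arachidonic acid from anandamide, was at 33.3 to 76.1 CPM on average in mesothelial groups, against 0.160 to 2.88 CPM in fibroblast groups (log2 fold change 6.30 ± 0.29, adjusted p = 1.56e-18). Mgll, the monoacylglycerol lipase, was higher by 1.38 ± 0.13 in the mean (adjusted p = 1.16e-10), but by depot was called in the omentum alone (2.94 ± 0.24, adjusted p = 2.13e-11), with 0.56 in the mesentery (adjusted p = 0.0698) and 0.63 in epididymal fat (adjusted p = 0.0297). The secreted phospholipase Pla2g5, also called, had no read in epididymal fibroblasts. Its libraries read 9.18 to 12.2 CPM in mesentery mesothelial cells, against at most 0.0891 CPM in mesentery fibroblasts, and 118 to 170.0 CPM in bone fibroblasts, the highest of all groups. The cytosolic phospholipase Pla2g4a had 326, 328 and 428 CPM in mesentery mesothelial cells, against 121, 108 and 109 CPM in mesentery fibroblasts. Its mean change of 1.05 ± 0.09 lay on the fold threshold, and its call and that of Pla2g10 were lost in 9 and 16 alternatives. Pla2g2e was at most 0.132 CPM in mesothelial libraries, with no read in the mesentery, against 1.31 to 7.96 CPM in fibroblasts of the same depots.

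Of 9 prostanoid receptor genes 8 were tested, and 1 was higher and 4 were lower in mesothelial cells, beside 12.3% of all genes called higher and 9.08% called lower. The median of the list was -1.16, beside 0.11 over all genes. The prostacyclin receptor Ptgir read 2.57, 3.11 and 5.66 CPM in omentum, 1.88, 0.190 and 1.63 CPM in mesentery and 2.34, 1.74 and 0.411 CPM in epididymal mesothelial cells. Every fibroblast library had at least 11.4 CPM, and Ptgir fell by 5.07 on the log2 scale (SE 0.27, adjusted p = 8.84e-16). High synthase and low receptor of prostacyclin thus stood together in the mesothelium. Lymph node fibroblasts showed the reverse, with 322, 296 and 240.3 CPM of Ptgir, the highest of all groups, beside the lowest Ptgis. Ptgir there was 2.48 ± 0.23 above the other 8 tissues (adjusted p = 5.32e-10). The prostaglandin F receptor Ptgfr fell by 5.42 (SE 0.28, adjusted p = 6.42e-17) and the E receptor Ptger4 by 3.36 (SE 0.27, adjusted p = 1.55e-12) in mesothelial cells. The E receptor Ptger3 rose by 3.51 ± 0.26 (adjusted p = 1.04e-12), with means of 60.2, 53.6 and 13.0 CPM in mesentery, omentum and epididymal mesothelial cells. Ptgdr, at under 1 CPM in every group mean, was called lower (-1.08) and lost in 3 of 25 alternatives.

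Of 8 genes of transport and reduction none was higher and 2 were lower in mesothelial cells, and of 6 lipoxygenase genes 2 were higher and 1 was lower, beside 21.4% of all genes called. The share of the transport list was near this background, and the list medians were 0.34 and -0.14. The exporter Abcc4 fell by 2.21 (SE 0.20, adjusted p = 2.87e-11). The carbonyl reductase Cbr2 (-1.25) lost its call in 6 of 25 alternatives, and the lipoxygenase-activating protein Alox5ap (1.13) in 5. Slco2a1, Cbr1, Akr1b3 and Prxl2b differed by 0.79, 0.66, 0.76 and 0.85 and stayed below the fold threshold. Alox15 rose by 3.68 ± 0.31 (adjusted p = 2.96e-11), although omentum mesothelial cells, at 80.4, 91.8 and 82.2 CPM, were close to omentum fibroblasts, at 76.7, 64.9 and 62.8 CPM. Summed macrophage markers were 106 to 134 CPM in mesentery mesothelial cells, against 9.89 to 33.2 CPM in mesentery fibroblasts. They were 53.1 to 118 against 21.6 to 52.1 CPM in epididymal fat and 74.3 to 136 against 119 to 153 CPM in the omentum. The part of macrophages in Alox15 and Alox5ap was not tested. The leukotriene synthase Ltc4s fell by 1.89 (SE 0.36, adjusted p = 4.83e-05). The uptake transporter Slco2a1, which delivers prostaglandins to Hpgd, read 183, 179 and 140.1 CPM in epididymal mesothelial cells, where Hpgd was at most 13.2 CPM, against 35.9, 43.2 and 34.4 CPM in epididymal fibroblasts (log2 fold change 2.15 ± 0.25, adjusted p = 2.15e-08). In lymph node fibroblasts Slco2a1 was 3.01 ± 0.15 above the other tissues (adjusted p = 1.23e-17), and the secreted phospholipase Pla2g2d, at 72.2, 58.3 and 124 CPM, was 6.31 ± 0.26 above them (adjusted p = 8.65e-19).

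Group means of log2 CPM were compared between each abundant member and 10111 other genes, as a description over 12 groups that share their libraries. Closest to Ptgs2 were Socs3 (r = 0.88), Zfp36 (0.88) and Ppp1r15a (0.87). The pattern of Ptgs1 was closest to Wdr34 (r = 0.93), Tppp (0.93) and Abcc3 (0.92), that of Ptgis to Hpcal1 (0.95), Sh3glb2 (0.93) and St3gal5 (0.93), and that of Ptgds to Cd2ap (0.98), Mtln (0.97) and Tfcp2l1 (0.97). For Ptges the closest were Tmx3 (r = 0.92), Tfpi2 (0.91) and Sepsecs (0.91), and for Hpgd they were Lum (0.94), Gpr155 (0.93) and Fahd1 (0.93). Among the members themselves the highest r was 0.73, for Ptgds and Ptges2, followed by 0.68 for Ptgs1 and Ptgis. The most negative was -0.76, for Ptges2 and Hpgd, followed by -0.75 for Ptgds and Hpgd. Ptgs1 and Ptgs2 had r = 0.03, and Ptgs2 and Ptges 0.14.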

How the data were processed

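RNA of 34 libraries in 12 groups was analysed, grouped by the labels. The deposited values are raw counts per gene, one file a library; per the file headers they count uniquely aligned reads. Salmon (no version) and GRCm38 are named in the submitters' processing notes. Which step gave the counts, the annotation release, the strand setting and any filter are not given in the sources used here. No column belonged to another sample (0 columns).

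Symbols were found for 51633 of 51826 identifiers. Positions and exon lengths come from GENCODE M21. Levels per kilobase divide by the merged exons of all annotated transcripts of a gene, which can be longer than the transcript expressed. Counts were tested with edgeR 4.0.16 in R 4.3.3 (TMM, glmQLFit with robust estimation) on the 25705 genes that filterByExpr kept (minimum count 10). All 34 libraries entered 1 fit with a coefficient per group, and 17 comparisons were made. CPM are TMM-scaled, except marker sums, which use unscaled totals. Fold changes carry the prior count of edgeR, and correlations used log CPM with a prior count of 2. The SE of a fold change is its absolute value divided by the square root of the F statistic. The alternatives were DESeq2 1.42.0, RLE size factors, unscaled totals, no filter, fits of only the groups compared, a replicate block, leaving out acinar-rich libraries and leaving out each library.

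Pairs of replicates differed by a chi-square per degree of freedom of 24.8 to 359, so none was a copy. Promoter windows came from RefSeq and were found for 9 members. All 10 members are named, the genes of the 4 lists where called (up to 4 per list outside the mean comparison), and the 3 genes with the closest pattern for members of at least 10 CPM (not reported here for Ptges3). Members and lists were chosen with earlier results of these data known.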

Additional observations from a re-analysis of the deposited data

Results flagged for a closer look

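The difference between mesothelial cells and fibroblasts itself differed between omentum, mesentery and epididymal fat in 4 members and 13 genes of the lists, each called by edgeR's test of that difference, beside 10.9% of all genes. Values are ranges of the mesothelial over fibroblast log2 fold changes across the 3 depots. Among the members they were 4.02 for Ptgs2 (adjusted p = 2.1e-04), 4.27 for Ptges (1.37e-08), 3.26 for Hpgd (2.13e-08) and 2.49 for Hpgds (0.045), and all but Hpgds kept the call in each of 25 alternatives.

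Among genes of arachidonate release the ranges were 1.42 for Pla2g4a (adjusted p = 1.16e-04), 2.38 for Mgll (1.28e-06), 2.65 for Faah (0.0409) and 4.98 for Pla2g5 (0.00375), where epididymal fibroblasts had no Pla2g5 read. Among receptors they were 5.04 for Ptger1 (adjusted p = 0.0266), 3.76 for Ptger2 (0.00124), 3.59 for Ptger3 (2.75e-04), 2.42 for Ptger4 (0.0493), 2.51 for Ptgfr (0.04) and 2.22 for Ptgir (0.0334). The remaining values were 2.35 for Slco2a1 (adjusted p = 2.75e-05), 1.61 for Abcc4 (0.0425) and 5.74 for Alox15 (3.56e-06). Of these 13 genes 6 kept the call in every alternative, namely Pla2g4a, Mgll, Ptger2, Ptger3, Slco2a1 and Alox15, and the other 7 lost it in at least 1.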

How the results depend on the processing

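The 170 member values were compared by their side of the threshold, and by direction where called. They kept these in 163 cases with DESeq2, 164 with unscaled totals, 164 with no filter, 168 with RLE size factors and 166 when only the groups compared were fitted. Without the acinar-rich libraries, which removes the pancreas group, 148 did, 5 gained a call and 7 lost one. Of 3280 values with a library left out, 3223 did and 1 reversed. Direction was not compared where neither fit called the gene, and a range over several groups has no direction. Counts of called members moved by over 1.5 times as follows. In brown adipose tissue (1 called) they were 3 with DESeq2, 0 with unscaled totals, 2 with no filter and 0 without the acinar-rich libraries. In mesentery fibroblasts (0 called) they were 1 with DESeq2, 1 with unscaled totals, 2 with no filter and 1 without the acinar-rich libraries. DESeq2 called 1 in inguinal fat. Without the acinar-rich libraries 3 members were called among mesothelial depots (against 5) and 0 in spleen (against 1). Leaving out 1 library gave 0 to 2 called members in brown adipose tissue, 0 to 1 in mesentery fibroblasts, 2 to 5 among mesothelial depots and 3 to 6 in pancreas. In pancreas, Ptgds ranged over -0.87 to 5.06 and Alox5ap over -0.54 to 2.60, both reversing without replicate 2.

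The labels do not say what a replicate number shares, and the numbers were not taken to pair libraries. Of 177 pairs with the same number, 25 had a correlation of deviations over 0.1 (-0.276 to 0.374, median -0.0025, against a median of -0.0015 with other numbers). These pairs pool all tissues, so they cannot tell whether mesothelial cells and fibroblasts of a depot share a source by number. Any such pairing does not enter the tests between these cell types. As hints of a shared source, replicate 2 was lowest in Ptgs2 in 8 of 12 groups, and replicate 1 passed 1000 acinar CPM in the 4 omentum and mesentery groups. With the replicate number as a block 168 member values kept their side of the threshold, and Hpgds lost the difference between depots (2.49, adjusted p = 0.0521) and the difference among mesothelial depots (1.70, adjusted p = 0.0532).

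Over all genes, omitting omentum fibroblast replicate 2 or omentum mesothelial replicate 2 left 1767 and 1828 calls of the difference between depots, against 2812. Omitting spleen replicate 1 or 2 left 567 and 476, against 998, and omitting pancreas replicate 1 left 1862, against 2817. The share of higher calls moved by over 10 percentage points. With DESeq2 it was 39.5% in brown adipose tissue (against 57.1%), 44.1% in epididymal (56.4%), 34.6% in inguinal (53.1%), 48.8% in mesentery (62.6%), 60.5% in pancreas (78.9%) and 75.2% in spleen fibroblasts (89.3%), and 63.5% for visceral fat (52.2%). With unscaled totals it was 53.1% in bone (against 65.8%), 46.0% in brown adipose tissue and 64.8% for visceral fat. Without the acinar-rich libraries it was 37.2% for the omentum depot (against 48.0%) and 88.0% in omentum fibroblasts (against 76.3%). The cause was not tested. Members under about 2 CPM (Ptgds in fibroblasts, Hpgds, Tbxas1 outside bone) are limited by depth.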
